A study of Mus musculus with 8 samples.

Results

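The SNARE genes encode the proteins that pull 2 membranes together until they fuse, and they were examined here in RNA from spinal cord microglia, the resident macrophages of the cord. The set holds 34 named SNARE genes of 54532 genes in the count table, found by their Ensembl gene identifiers through the mouse GENCODE annotation of build mm10. Membership came from the names of the genes and not from any measured value. The study compared 4 wild-type mice (WT) with 4 mice carrying a knock-in (KI) that is named Cd11b-P2X4mCherryIN. That name joins Cd11b, a surface marker of myeloid cells, to P2X4, an ion channel opened by ATP, and the sources used here do not describe the allele further. All 8 mice were female, and 1 RNA-seq library was made from each. The sort on dissociated spinal cord kept live cells with CD11b, little CD45 and no Ly6C at the surface. The labels give no age, treatment or batch, so each library is named below by its group and mouse number (WT 503, 504, 506 and 527, and KI 513, 526, 528 and 549).

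SNARE proteins are short coiled proteins, most of them held in a membrane at 1 end. R-SNAREs, which include the VAMP proteins, usually sit on the vesicle, and Q-SNAREs, which include the syntaxins and the SNAP proteins, usually sit on the target membrane. When they zip into a bundle the membranes fuse, and the ATPase NSF with its SNAP adaptors then takes the bundle apart for reuse. In microglia this machinery serves the delivery of engulfed material to lysosomes, the recycling of receptors and the release of cytokines. P2X4 itself cycles between lysosomes and the cell surface, which is why plasma membrane, endolysosomal and Golgi SNAREs are set side by side here.

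The libraries held between 45167483 and 54049801 counted reads, and the SNARE genes took between 0.248% and 0.268% of them. Microglia markers were far above those of other cell types: the summed level of 10 microglia markers lay between 32452 and 38661 CPM (counts per 1000000 reads, scaled by the TMM method) in every library, and the summed level of 12 neuron markers between 3.91 and 28.0 CPM. In each library the summed levels lay between 320 and 396 CPM for 6 astrocyte markers, 148 and 284 CPM for 6 oligodendrocyte markers, 35.2 and 55.7 CPM for 5 endothelial markers and 96.2 and 523 CPM for 5 erythroid genes. They lay between 2.39 and 22.5 CPM for 6 monocyte and neutrophil markers, 4.40 and 19.6 CPM for 6 border macrophage markers and 0.179 and 1.63 CPM for 6 lymphocyte markers. Single genes gave most of the astrocyte and endothelial sums. Slc1a3 averaged 330.6 CPM in WT and 340.2 CPM in KI, and the next astrocyte marker, Aldoc, 14.03 and 13.24 CPM. The endothelial marker Pecam1 averaged 40.95 CPM in WT and 41.49 CPM in KI. These sums therefore do not rank astrocyte or endothelial RNA against neuronal RNA. P2rx4, the gene of P2X4, was at 793 ± 43.5 CPM in WT and 859 ± 62.7 CPM in KI (mean ± SD, n = 4 each; log2 fold change 0.11, edgeR adjusted p = 0.735), and counts over its gene model do not check the genotype.

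Of the 34 SNARE genes, 33 had enough reads to be tested and 30 averaged at least 5 CPM. The exception was Vamp7 (ENSMUSG00000051412), an R-SNARE of late endosomes and lysosomes, which had 0 reads in all 8 libraries. A count of 0 allows up to 3 reads, or between 0.0555 and 0.0664 CPM across the libraries, by counting error only. The annotation places Vamp7 on the unplaced scaffold GL456233.1 (bases 10738 to 39148), and all 86 genes that the annotation lists on such scaffolds had 0 reads, so the 0 gives no level for Vamp7. A pseudogene copy, Vamp7-ps, had between 6 and 18 reads per library.

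A pair of neighbouring SNARE genes on chromosome 6 stood far apart in level, and the bases before their starts are printed. Any relation of these bases to the levels was not tested. Vamp8 and Vamp5 are both on the minus strand, separated by 4754 bases, and the level of Vamp8 per exon length was 13.1 times that of Vamp5. The pair was chosen after the levels were seen. The sequences are the 250 bases before each RefSeq start in build GRCm38.p6, written 5′ to 3′ on the gene's strand, with each CG dinucleotide in capitals; Vamp8 is at chr6:72390668-72390917 and Vamp5 at chr6:72380469-72380718.
Vamp8: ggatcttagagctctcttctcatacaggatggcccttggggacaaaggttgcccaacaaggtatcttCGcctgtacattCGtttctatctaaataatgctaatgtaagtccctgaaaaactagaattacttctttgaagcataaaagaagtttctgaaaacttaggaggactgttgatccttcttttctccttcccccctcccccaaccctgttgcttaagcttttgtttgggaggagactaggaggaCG
Vamp5: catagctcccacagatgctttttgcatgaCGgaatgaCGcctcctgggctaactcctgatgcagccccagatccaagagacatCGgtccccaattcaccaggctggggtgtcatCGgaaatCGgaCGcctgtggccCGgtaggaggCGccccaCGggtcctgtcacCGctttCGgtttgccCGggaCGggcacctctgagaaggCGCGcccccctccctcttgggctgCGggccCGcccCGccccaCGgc
The Vamp8 window holds 3 CG dinucleotides and the Vamp5 window 19. Of all windows, 37.8% hold as few as the Vamp8 window and 19.7% as many as the Vamp5 window. RefSeq windows were matched for 30 of the 34 SNARE genes (37 windows), with a median of 14 CG dinucleotides beside 6 over all 32851 windows. The motif CACGTG, which reads the same on both strands and is the core of the sites bound by the lysosomal regulators of the TFEB family, was in 3 of the 37 windows (8.11%) and in 6.02% of all windows. The 3 windows were of Bnip1, Stx6 and Vamp4. None of the 8 windows of endolysosomal SNARE genes held it, but 8 windows are too few to set that apart from 6.02%. Stx6 and Vamp4, placed in the Golgi group here, are also known from endolysosomal membranes. Vamp2, Vamp3, Snap25 and Vamp7 had no matched window.

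Levels per exon length were led by endolysosomal SNAREs. They are given as TMM-scaled reads per kilobase of exon per 1000000 reads (RPKM), averaged over all 8 libraries, because reads per gene depend on transcript length. The length used is that of all annotated exons of a gene, which can exceed the transcripts expressed, so the order between genes depends on it. In CPM, Stx7 (385 in WT and 406 in KI) was above Vamp8 (276 and 303). Vamp8, the R-SNARE of late endosome and lysosome fusion, was highest at 125 ± 9.36 RPKM (SD, n = 8). Stx7, the late endosomal syntaxin, followed at 88.3 ± 4.91 RPKM and Vti1b, their Qb partner, at 67.8 ± 6.52 RPKM. The same order held in all 8 libraries.

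Next came Snap23, the SNAP of the plasma membrane in non-neuronal cells, at 53.4 ± 5.17 RPKM, and Sec22b, an R-SNARE of the endoplasmic reticulum (ER) and early Golgi, at 42.0 ± 4.92 RPKM. From Sec22b down to Snap29, no neighbour in the order differed by more than the sum of the 2 genes' SDs: Vamp4 was at 41.2, Vamp3 at 38.8, Gosr2 at 35.5, Ykt6 at 29.5 and Snap29 at 25.4 RPKM. Of the 32 neighbouring pairs in the order of the 33 genes with reads, 8 differed by more than that sum and 24 did not. The 8 steps were the 4 from Vamp8 down to Sec22b and those from Snap29 to Stx5a, Snap47 to Vamp5, Bet1l to Stx17 and Stx3 to Vamp1.

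**Figure D1:**
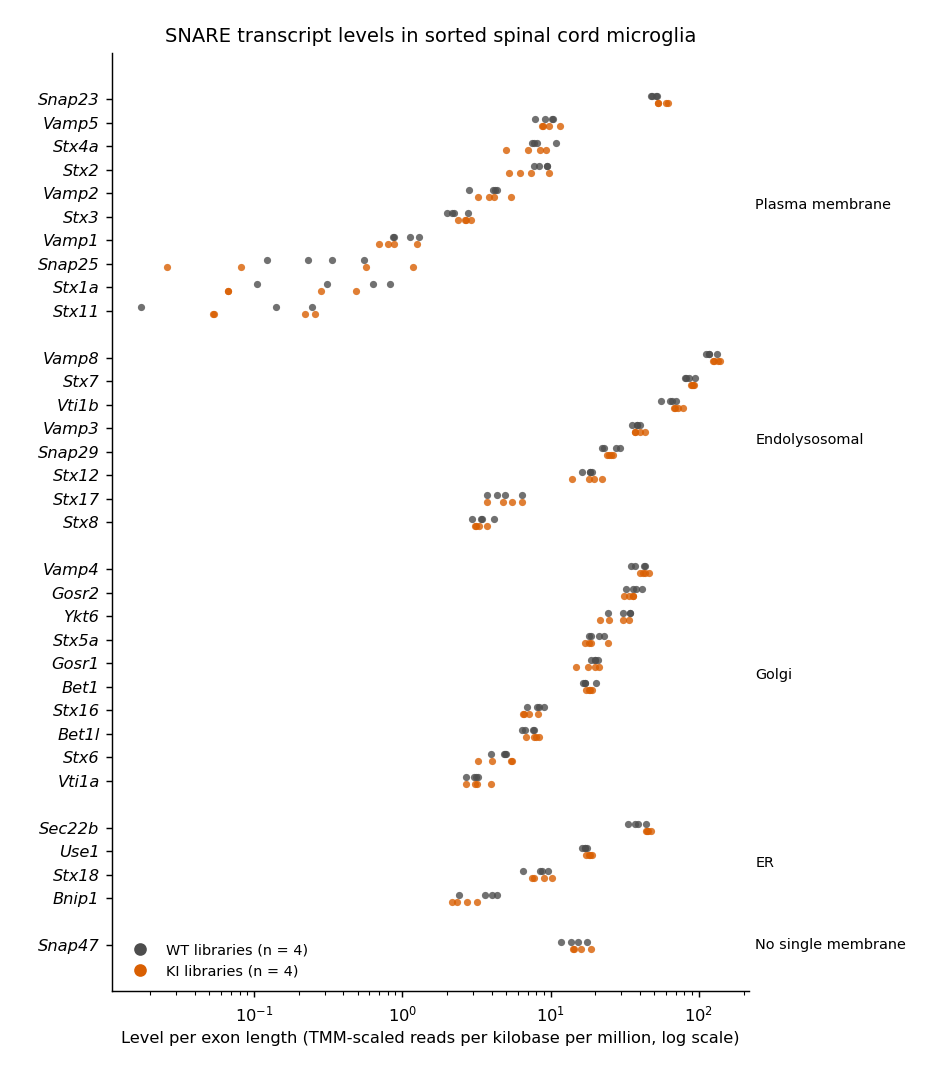
Level per exon length of each SNARE gene with reads (RPKM, log axis), 1 point per library, WT in grey and KI in orange, grouped by membrane. Points at 0 cannot be drawn on the log axis, and Stx11 had 1 such library (WT 506). Vamp8 and Stx7 lie to the right of all other genes, and Vti1b, above Snap23 within each library, reaches down to 55.9 in WT 504, below the highest Snap23 points (61.8 in KI 528 and 60.4 in KI 549). The points of Snap25, Stx1a and Stx11 are spread over the widest range.

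By membrane, the endolysosomal genes (9 with Vamp7 entered as 0, so 8 with a measured level) took 50.3% ± 1.52 of the summed SNARE RPKM in WT and 51.4% ± 0.664 in KI (mean ± SD, n = 4 each). The 10 Golgi genes took 26.4% ± 1.31 in WT and 24.5% ± 1.02 in KI. The 10 plasma membrane genes took 11.9% ± 0.585 and 11.99% ± 0.653, and the 4 ER genes 9.43% ± 0.428 and 10.01% ± 0.173. In the endolysosomal, Golgi, plasma membrane and ER groups alike, the WT and KI means of these shares differed by less than the sum of their SDs. Snap47, which has no membrane anchor and was put in none of these groups, took the rest. The shares depend on placing each gene at a single membrane, and 11 genes are known from more than 1. Among them, Vamp3 (38.8 RPKM) and Snap29 (25.4 RPKM) are also known from the plasma membrane. Vamp4 (41.2 RPKM) and Ykt6 (29.5 RPKM), counted as Golgi, are also known from endolysosomal membranes. Shares under the other placement were not computed, so the order of the Golgi and plasma membrane groups holds for this placement only.

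Within each structural class 1 or 2 genes carried most of the level. Vamp8 made up 42.5% ± 1.95 of the R-SNARE RPKM in WT and 43.4% ± 0.926 in KI. Among the syntaxins of class Qa, Stx7 made up 51.9% ± 2.77 in WT and 54.2% ± 1.91 in KI, and Vti1b made up 50.1% ± 3.40 of class Qb in WT and 55.1% ± 2.98 in KI. Snap23 held 55.2% ± 2.36 of the SNAP-type class Qbc in WT and 57.9% ± 2.34 in KI. Class Qc had no single leader: in WT Bet1, a SNARE of ER-to-Golgi traffic, held 35.4% ± 1.86 and Use1, a SNARE of the ER, held 33.995% ± 1.62.

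No SNARE gene was called different between KI and WT. The test was edgeR's quasi-likelihood test over all 17291 tested genes with an adjusted p threshold of 0.05, and it called 0 genes in all (0%), so the absence of calls is shared with every other gene tested. By 2 other tests, edgeR's likelihood ratio test called 42 genes (0.243%) and DESeq2 139 (0.804%), none of them a SNARE gene. At an unadjusted p under 0.05 there were 1347 genes (7.79%), with 559 higher in KI (3.23%) and 788 lower (4.56%). The SNARE genes had 3 of 33 at that level (9.09%), Sec22b and Snap23 higher in KI and Bnip1 lower, which is near the share over all genes. The smallest adjusted p of a SNARE gene was 0.572. In bulk RNA, fewer cells of a type and less RNA per cell cannot be told apart.

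Among the 33 tested SNARE genes, 20 had a fold change above 0 (60.6%) and 13 below, where 50.1% of all tested genes were above 0. The median log2 fold change was 0.05, beside 0.00 over all tested genes. For the 30 SNARE genes at 5 CPM or more, fold changes ran from -0.47 to 0.25 on the log2 scale, and for 26 of them (86.7%) the 95% interval lay within 1.5-fold either way. Over all genes at 5 CPM or more, which were not matched to the SNARE genes by level, that share was 65.4%. The WT and KI libraries did not overlap for 1 of these 30 genes (3.33%), Snap23, and for 6.05% of all genes at that level (3.08% with KI above WT and 2.97% with KI below).

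**Figure D2:**
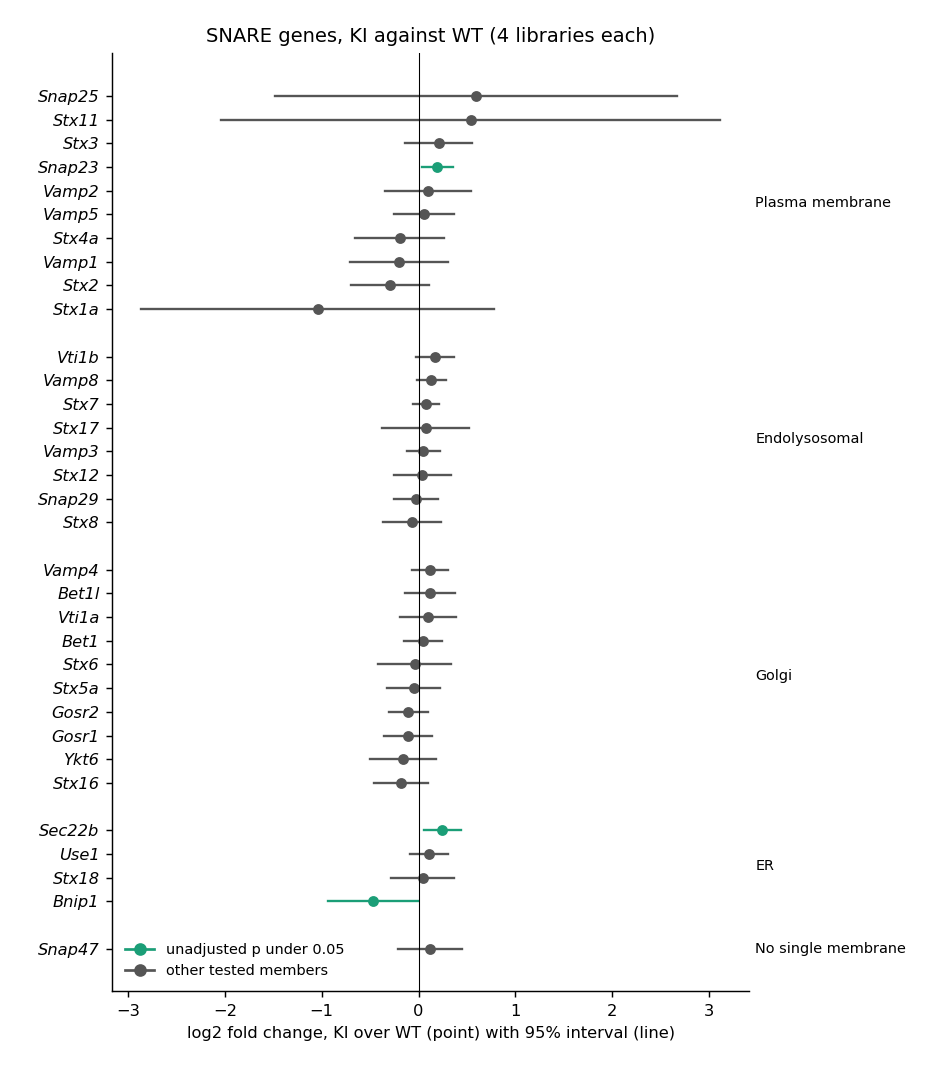
Log2 fold change of KI over WT for each tested SNARE gene (point) with its 95% interval (line), grouped by membrane, 4 libraries per group. Sec22b, Snap23 and Bnip1, drawn in green, are the genes with an unadjusted p under 0.05, and the intervals of Snap25, Stx1a and Stx11 are the widest.

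Of the plasma membrane SNAREs, Snap23 was the most abundant and the one whose groups stood apart. Snap23 (ENSMUSG00000027287, chromosome 2, 120567671 to 120601255, plus strand) pairs with syntaxins at the cell surface and on phagosomes. Its level was 225, 219, 205 and 206 CPM in WT 503, 504, 506 and 527, and 227, 227, 265 and 259 CPM in KI 513, 526, 528 and 549. Every KI library lay above every WT library, but KI 513 and KI 526 lay close to WT 503, and KI 528 and KI 549 were the highest. The means were 214 ± 9.93 CPM in WT and 245 ± 20.5 CPM in KI, a log2 fold change of 0.19 (SE 0.073, 95% interval 0.03 to 0.36, unadjusted p = 0.024 and adjusted p = 0.598, edgeR). The unadjusted p stayed under 0.05 in 11 of 18 alternative settings, and was 0.074 without KI 528, 0.062 without KI 549, 0.060 without WT 506 and 0.061 without WT 527.

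Vamp5, a VAMP of the cell surface, was at 27.6, 27.9, 24.6 and 21.3 CPM in the WT libraries and 24.1, 26.6, 23.5 and 31.3 CPM in the KI libraries. The groups overlapped, with both extremes of the gene in WT 527 and KI 549, and the log2 fold change was 0.06 (SE 0.140). Stx4a, the main surface syntaxin partner of Snap23 in many cells, was at 19.2, 18.4, 25.8 and 17.7 CPM in WT and 20.02, 11.9, 16.8 and 22.2 CPM in KI. Its groups overlapped too, KI 526 being lowest and WT 506 highest, with a log2 fold change of -0.20 (SE 0.208). Stx2 and Stx3, further surface syntaxins, had log2 fold changes of -0.29 (SE 0.181) and 0.21 (SE 0.155), with overlapping libraries.

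The SNAREs of synaptic vesicle release were low, Snap25 and Stx1a most of all. Snap25, the neuronal SNAP, was at 2.27, 3.76, 1.57 and 0.833 CPM in WT and 3.89, 8.08, 0.178 and 0.557 CPM in KI. The KI libraries held both the highest value (KI 526) and the lowest (KI 528), and Snap23 exceeded Snap25 by 137-fold in mean RPKM. Stx1a, the neuronal surface syntaxin, was at 0.824, 0.279, 2.20 and 1.69 CPM in WT and 0.179, 0.754, 0.178 and 1.299 CPM in KI. Its groups overlapped. Stx11, a syntaxin known from cytotoxic lymphocytes, averaged 0.425 ± 0.483 CPM in WT and 0.616 ± 0.457 CPM in KI. The log2 fold changes of these genes, 0.59 for Snap25, -1.04 for Stx1a and 0.54 for Stx11, had SEs of 0.934, 0.819 and 1.16, so with this spread between libraries the direction of none of them could be told.

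Vamp2, the VAMP of synaptic vesicles, was at 15.6, 10.8, 16.5 and 16.1 CPM in WT and 14.7, 15.7, 12.3 and 20.5 CPM in KI. Vamp1, its close relative, was at 8.77, 11.5, 13.2 and 8.89 CPM in WT and 7.11, 8.10, 12.7 and 8.89 CPM in KI. Both genes had overlapping groups, and their log2 fold changes were 0.10 (SE 0.201) for Vamp2 and -0.20 (SE 0.229) for Vamp1. The summed neuron markers were 13.1, 19.7, 9.35 and 8.01 CPM in WT and 8.13, 28.0, 3.91 and 9.45 CPM in KI. Of these sums, Snhg11 alone made up 16.4 CPM in KI 526 and 2.31 CPM in KI 528. KI 526 was highest and KI 528 lowest in both the neuron markers and Snap25, whereas Vamp2 was highest in KI 549 and lowest in WT 504. The part that neuronal RNA has in the level of Snap25 was not tested.

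**Figure D3:**
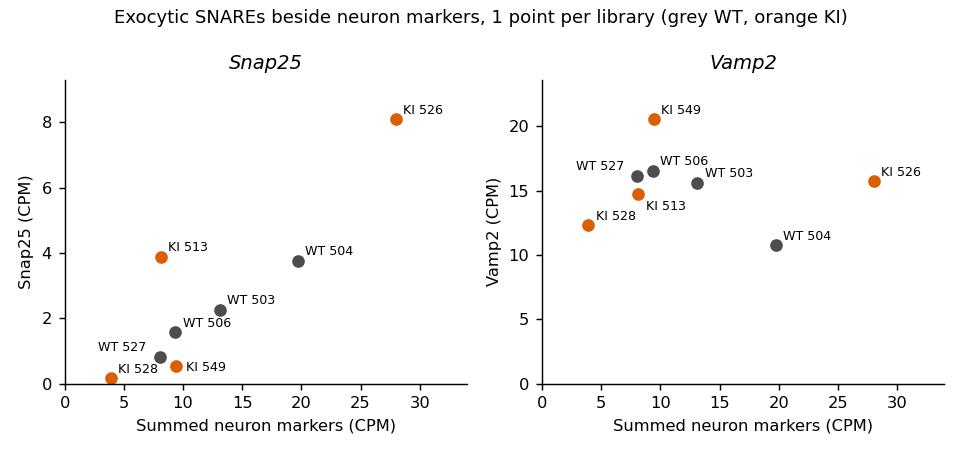
Levels of Snap25 (left) and Vamp2 (right) in CPM against the summed level of the 12 neuron markers in CPM, 1 point per library, WT in grey and KI in orange. KI 526, with 28.0 CPM of neuron markers, has the highest Snap25 value (8.08 CPM) and a middle Vamp2 value (15.7 CPM).

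The endolysosomal SNAREs were led by 3 abundant genes. None had an unadjusted p under 0.05 in the quasi-likelihood test of all 8 libraries without GC or length correction. Vamp8 (ENSMUSG00000050732, chromosome 6, 72385223 to 72390703) was at 306, 272, 260 and 268 CPM in WT and 293, 289, 309 and 320 CPM in KI. WT 503 lay within the KI range and the other WT libraries below it, and the log2 fold change was 0.13 (SE 0.068, 95% interval -0.02 to 0.28, unadjusted p = 0.082 and adjusted p = 0.699, edgeR). Its unadjusted p was under 0.05 in only 2 of 18 alternative settings. These were 0.017 without WT 503 and 0.032 after correction for GC content and length, while without WT 506 it was 0.194 (edgeR). Stx7 was at 384, 369, 362 and 424 CPM in WT and 414, 406, 405 and 397 CPM in KI. The KI libraries fell inside the WT range, with a log2 fold change of 0.08 (SE 0.062, 95% interval -0.06 to 0.21). Vti1b was at 106, 90.1, 102 and 113 CPM in WT and 109, 117, 111 and 126 CPM in KI. WT 527 overlapped the KI range and the log2 fold change was 0.17 (SE 0.087, unadjusted p = 0.078 and adjusted p = 0.692, edgeR). The unadjusted p of Vti1b was under 0.05 in only 1 of 18 alternative settings, at 0.039 without WT 527, and was 0.209 without WT 504 (edgeR). Vti1b shares 17.7% of its exon bases with Arg2 on the other strand, and counting used no strand option, but Arg2 itself was at 0.723 CPM.

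The 3 genes named here form, with Stx8, the complex known for late endosome fusion, and Stx8, its Qc member, was much lower at 3.40 RPKM with a log2 fold change of -0.07 (SE 0.135). Vamp3, the R-SNARE of recycling endosomes, was at 110 ± 5.61 CPM in WT and 114 ± 8.90 CPM in KI. Snap29, which joins Stx17 in autophagosome fusion, was at 88.3 ± 12.4 CPM in WT and 86.7 ± 3.81 CPM in KI, and Stx17 at 28.9 ± 6.92 and 30.4 ± 6.78 CPM. Stx12, a syntaxin of recycling endosomes, was at 57.5 ± 3.64 CPM in WT and 59.2 ± 11.0 CPM in KI. For Vamp3, Snap29, Stx17 and Stx12 alike, the means differed by less than the spread between libraries. Over the 8 tested endolysosomal genes, 6 fold changes were above 0 and the median was 0.06 on the log2 scale. With 1 library left out, between 4 (without KI 513) and 8 (without WT 527) were above 0, and the median ran from 0.029 (without KI 513) to 0.099 (without KI 528).

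Golgi SNAREs, with Sec22b placed in the ER group, gave no gene with an unadjusted p under 0.05 either. Vamp4, the R-SNARE of the trans-Golgi network, was at 198, 195, 160 and 169 CPM in WT and 210, 184, 198 and 192 CPM in KI. WT 506 and WT 527 were the lowest libraries, and the groups overlapped (log2 fold change 0.12, SE 0.084). Gosr2, a Qb-SNARE of ER-to-Golgi and intra-Golgi traffic, was at 106, 135, 117 and 123 CPM in WT and 110, 102, 118 and 117 CPM in KI. Ykt6, a lipid-anchored R-SNARE, was at 73.3, 103, 103 and 92.5 CPM in WT and 101, 74.5, 64.7 and 91.9 CPM in KI. The groups overlapped for Gosr2 (log2 fold change -0.11, SE 0.090) and for Ykt6 (-0.16, SE 0.155).

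The other 7 Golgi genes lay between -0.18 (Stx16, a syntaxin of endosome-to-Golgi return) and 0.12 (Bet1l) on the log2 scale. Stx5a, the Golgi syntaxin, was at -0.05, Gosr1 at -0.11, Bet1 at 0.05, Stx6 at -0.04 and Vti1a at 0.10. Over the 10 Golgi genes 4 fold changes were above 0 and 6 below, with a median of -0.05. Over the 10 plasma membrane genes 6 were above 0 and 4 below, with a median of 0.08. The medians of the Golgi and plasma membrane groups changed sign when KI 528 (0.03) or KI 549 (-0.04), respectively, was left out. Bet1l shares 9.87% of its exon bases with Ric8a (39.0 CPM) on the other strand, so its count could depend on how reads in the shared bases were assigned.

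The ER group held 2 of the 3 genes with an unadjusted p under 0.05, and they lay on opposite sides of 0. Sec22b is also found in the early Golgi, and with Sec22b placed there the ER group and the Golgi group held 1 such gene each. Sec22b (ENSMUSG00000027879, chromosome 3, 97901190 to 97923276, plus strand), which serves ER-to-Golgi traffic and recruits ER membrane to phagosomes, was at 155, 176, 133 and 148 CPM in WT and 174, 179, 182 and 190 CPM in KI. The KI libraries lay close together at the top, and WT 504 was just above KI 513, so the groups overlapped. The means were 153 ± 17.6 CPM in WT and 181 ± 6.82 CPM in KI, a log2 fold change of 0.25 (SE 0.085, 95% interval 0.06 to 0.44, unadjusted p = 0.016 and adjusted p = 0.572, edgeR). Its unadjusted p stayed under 0.05 in 17 of 18 alternative settings, including each of the 8 that left out 1 library, where the fold change ran from 0.19 to 0.32.

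Bnip1 (ENSMUSG00000024191, chromosome 17, 26781079 to 26792565, plus strand), a Qb-SNARE of Golgi-to-ER return, was at 18.5, 20.6, 22.3 and 12.3 CPM in WT and 11.1, 13.8, 16.3 and 11.9 CPM in KI. WT 527 lay among the KI libraries and the other WT libraries above them. The means were 18.4 ± 4.37 CPM in WT and 13.3 ± 2.32 CPM in KI, a log2 fold change of -0.47 (SE 0.208, 95% interval -0.94 to -0.01, unadjusted p = 0.047 and adjusted p = 0.635, edgeR). The unadjusted p stayed under 0.05 in 7 of 18 alternative settings and was between 0.0065 and 0.135 when 1 library was left out. Bnip1 acts in 1 complex with Stx18, Use1 and Sec22b, whose fold changes were above 0. Use1 was at 35.7, 37.3, 38.7 and 37.7 CPM in WT and 42.0, 38.4, 40.7 and 40.2 CPM in KI, with WT 506 just above KI 526 and a log2 fold change of 0.11 (SE 0.088). Stx18, the ER syntaxin, was at 39.3, 29.9, 44.0 and 40.3 CPM in WT and 46.7, 41.2, 35.5 and 34.4 CPM in KI. Its groups overlapped (log2 fold change 0.04, SE 0.146), and it shares 19.8% of its exon bases with an opposite-strand gene at 0.680 CPM.

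Snap47, a SNAP without an anchor, was at 38.6 ± 6.74 CPM in WT and 41.9 ± 5.76 CPM in KI (log2 fold change 0.12, SE 0.147). It shares 11.6% of its exon bases with Jmjd4 (5.59 CPM) on the other strand.

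The proteins that guide and recycle SNAREs were examined as 7 lists with 64 genes, of which 58 were tested. None was called, and 5 had an unadjusted p under 0.05 (8.62%), which is near the 7.79% of all tested genes. All 5 were higher in KI and 0 were lower, where 3.23% of all tested genes were higher and 4.56% lower. The median log2 fold change over the 58 was nonetheless -0.05, and 24 of them (41.4%) were above 0. Of the 5 genes, 3 were SM proteins, which clasp the forming SNARE bundle.

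Stxbp3, the SM protein of the Stx4a and Snap23 step at the cell surface, was at 173, 137, 159 and 149 CPM in WT and 229, 193, 174 and 178 CPM in KI. All KI libraries lay above all WT libraries, KI 528 by the least. The means were 155 ± 15.4 CPM and 194 ± 24.9 CPM, a log2 fold change of 0.32 (SE 0.103, unadjusted p = 0.011 and adjusted p = 0.553, edgeR). Scfd1, the SM protein of ER-to-Golgi fusion, had a log2 fold change of 0.19 (169 ± 12.3 CPM in WT, 193 ± 16.1 CPM in KI, adjusted p = 0.620, edgeR), and its relative Scfd2 one of 0.39 (17.7 ± 2.65 and 23.3 ± 4.47 CPM, adjusted p = 0.634, edgeR). The 8 SM proteins were split 4 above 0 and 4 below.

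**Figure D4:**
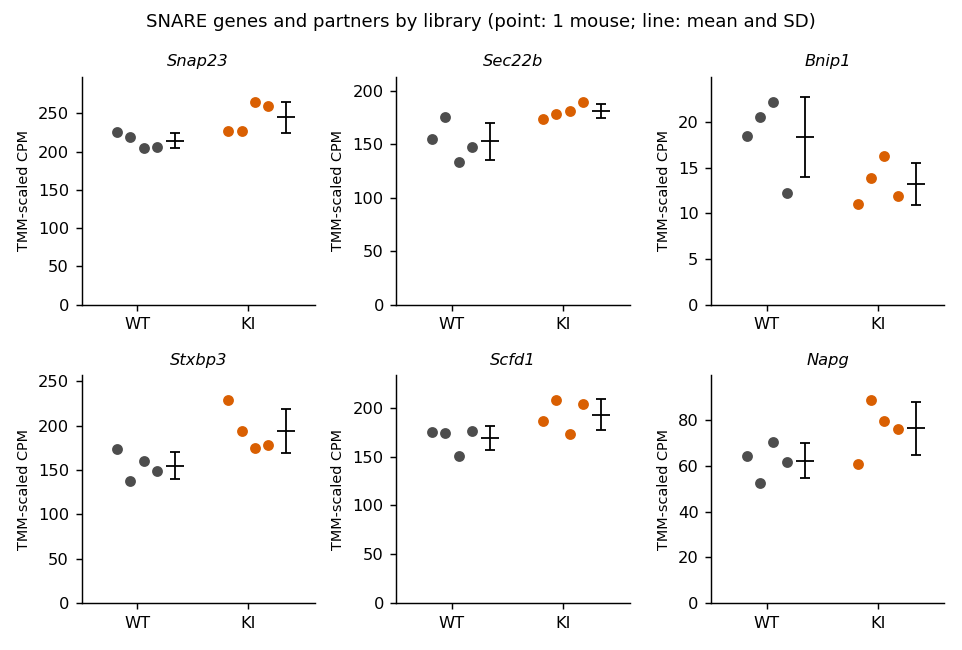
TMM-scaled CPM of Snap23, Sec22b, Bnip1, Stxbp3, Scfd1 and Napg in each library (points, WT in grey and KI in orange) with the mean and SD of each group (line and bars). The KI points of Snap23 and Stxbp3 all lie above their WT points, and those of the other 4 genes overlap.

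Among the 4 genes of SNARE disassembly, Napg, a SNAP adaptor of NSF, was at 62.4 ± 7.45 CPM in WT and 76.5 ± 11.6 CPM in KI (log2 fold change 0.29, adjusted p = 0.634, edgeR), with KI 513 inside the WT range. Napa, the main adaptor, was at 161 ± 15.6 and 150 ± 13.5 CPM, and 3 of the 4 genes were below 0. Of the 16 SNARE-binding regulators, 12 were tested and 5 were above 0. Snapin, which binds the SNAP proteins, was at 187 ± 16.4 CPM in WT and 211 ± 9.70 CPM in KI (log2 fold change 0.17, adjusted p = 0.622, edgeR), and Unc13c, a priming factor, was under 1 CPM in both group means.

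The tethers that bring vesicles to their SNAREs gave no gene with an unadjusted p under 0.05. Of the 7 HOPS and CORVET genes, which tether late and early endosomes, 5 were below 0. Their member Vps18 was at 40.01 ± 2.50 CPM in WT and 35.6 ± 1.10 CPM in KI with no overlap (log2 fold change -0.17, adjusted p = 0.723, edgeR), and Vps39 had a log2 fold change of -0.15. Of the 9 exocyst genes, which tether at the cell surface, 5 were above 0, with Exoc3 at 0.08 and Exoc4 at 0.12. Of the 15 COG, GARP and Dsl1 genes of the Golgi and ER, 10 were below 0, with Vps52 at -0.57 (SE 0.282) and Cog7 at -0.51 (SE 0.296). The list of 5 further SNARE genes had 3 tested, of which Sec22a was at 0.11 and Stx19 at 0.26, and Tsnare1 was not analysed here.

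Markers of the sorted cells themselves included larger differences than most SNARE genes. Of 10 microglia markers, 1 was higher and 3 lower in KI at an unadjusted p under 0.05, beside 3.23% and 4.56% of all tested genes, and none was called. Csf1r, the receptor for the growth factor that microglia depend on, was at 2866 ± 242 CPM in WT and 2250 ± 232 CPM in KI, with every KI library below every WT library (log2 fold change -0.35, SE 0.083, adjusted p = 0.507, edgeR). Tmem119 had a log2 fold change of -0.32 (SE 0.111), the fractalkine receptor Cx3cr1 one of -0.23 (SE 0.072) and Gpr34 one of 0.12 (SE 0.052), all with overlapping groups. All 5 erythroid genes were below 0, with a median of -0.96, overlapping groups and 3 genes at an unadjusted p under 0.05. These 4 microglia markers and the erythroid list were singled out after their values were seen. Neuron, astrocyte, oligodendrocyte, endothelial, monocyte and neutrophil, border macrophage and lymphocyte markers had 0 at that level. The part of these genes in the SNARE values was not tested.

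No single library held most of the SNARE extremes. The highest value of a tested SNARE gene fell most often in KI 513 and KI 528 (7 genes each) and KI 549 and WT 506 (6 each), and the lowest most often in WT 506 (9 genes) and KI 528 (6 genes). Among the 30 SNARE genes at 5 CPM or more, the median coefficient of variation was 10.7% in WT and 12.3% in KI. Over all genes at 5 CPM or more, not matched by level, it was 12.7% and 13.6%.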

How the data were processed

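Sorted spinal cord microglia of 4 WT and 4 KI mice were compared, with groups and mouse numbers from the labels. The submitters' processing notes list featureCounts 2.0.3, STAR 2.7.5c, R 3.6.0, SAMtools 1.9, limma and edgeR, with build mm10 and no order of steps. The deposited count of each gene was made by featureCounts over exons, with paired-end input and no strand option, per the file headers. That header shows no fragment counting option, so a pair may be counted as 2 reads. The deposited FPKM values were used only for alternatives; no source used here says how they were made. The deposited exon length per gene, per the file headers, was used for RPKM. A set of 8 columns that matched no sample was left unused.

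Of 54532 genes, 54495 were paired with a GENCODE symbol, and 98.33% had the same start and end. Counts were tested with edgeR 4.0.16 in R 4.3.3 (TMM, filterByExpr with a minimum count of 10 and a minimum total of 15, robust quasi-likelihood test, Benjamini-Hochberg adjustment over all 17291 tested genes). SEs were derived from the fold change and its F statistic. The test was checked on simulated counts of 16637 genes for KI against WT: it recovered 6% of genes changed 1.2-fold, 28% at 1.5-fold, 60% at 2-fold and 98% at 4-fold, with 4 false calls. Alternatives used DESeq2 1.42.0 and limma 3.58.1, other filters and scalings, length and GC trends, log2(FPKM + 1) and log2(FPKM + 0.1), and each library left out.

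All 34 members were described. Values per library were given for genes with an unadjusted p under 0.05, genes without overlap, the 3 highest per membrane group, and Snap25, Stx1a, Vamp1 and Vamp2; of the partner lists, called genes and otherwise up to 2 per list by smallest unadjusted p were named, with Scfd2 added after its values were seen. The members and lists were chosen with earlier results of these data known. The labels do not say how the mice were bred or handled together, so whether the 8 libraries are independent is not known. The p-values set the difference between groups against the spread between libraries within each group. Replicates differed by more than counting noise (chi-square per degree of freedom 28.4 to 63.5).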

Additional observations from a re-analysis of the deposited data

Results flagged for a closer look

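In 3 of the 66 SNARE gene and group combinations examined, 1 library stood apart from the other 3 of its group, where chance gives about 1 in 20. Bet1 was at 75.2 CPM in WT 504, beside 61.6 to 63.9 CPM in the other WT libraries. Stx6 was at 42.1 CPM in WT 503, beside 51.9 to 53.1 CPM in the others. Vamp2 was at 10.8 CPM in WT 504, beside 15.6 to 16.5 CPM in the others, and without WT 504 its log2 fold change was -0.02 in place of 0.10.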

How the results depend on the processing

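No SNARE gene was called in any of the settings tried, and the smallest adjusted p of a SNARE gene over them was 0.192 (Sec22b, DESeq2). Over all genes, 42 were called by edgeR's likelihood ratio test and 139 by DESeq2, against 0 by the quasi-likelihood test and limma-voom. The cause was not tested. On the simulated counts the likelihood ratio test made 32 false calls and the quasi-likelihood test 4. They recovered 44% and 28%, respectively, of genes changed 1.5-fold. The number of SNARE genes with an unadjusted p under 0.05 ranged from 1 to 3 when 1 library was left out, and was 1 without WT 506 and 1 without KI 549. The endolysosomal median stayed above 0. The Golgi median ranged from -0.086 to 0.030 and the plasma membrane median from -0.043 to 0.11 when 1 library was left out, and the Golgi median was 0.041 when 11 genes known from more than 1 membrane were placed in their other group and Snap47 in the plasma membrane group.

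The sign turned for Snap25 with limma-voom (-0.39) and with log2(FPKM + 0.1) (-0.023), and for Snap29 after correction for gene length (0.0073). After correction for both GC content and length, an alternative chosen after seeing the data, it turned for Stx5a (0.0061) and Stx12 (-0.0017). With 1 library left out, values on the log2 scale ran across 0 for Snap25 (-0.46 to 1.03), Snap29 (-0.093 to 0.049), Stx12 (-0.060 to 0.15), Stx17 (-0.058 to 0.24), Stx18 (-0.061 to 0.11), Stx5a (-0.17 to 0.015), Stx6 (-0.15 to 0.091), Stx8 (-0.14 to 0.026), Vamp2 (-0.051 to 0.20), Vamp5 (-0.036 to 0.11) and Vti1a (-0.017 to 0.17). No paired analysis was possible because the mouse numbers are not shared between the groups. With 4 libraries per group the simulated test missed most genes changed 1.5-fold, which limits what the absence of calls shows.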
